A study of Mus musculus with 14 samples.

Results

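A set of 10 genes that mark cardiac fibroblasts, or that these cells use to build and tune the matrix around heart muscle, was followed through 14 mouse heart libraries: *Tcf21*, *Pdgfra*, *Dcn*, *Lum*, *Fbn1*, *Mfap5*, *Postn*, *Ctgf*, *Cilp* and *Timp1*. They were chosen by name and found by their GENCODE M21 symbols among the 54532 gene identifiers of the count files, so all 10 of 10 are accounted for. *Ctgf* stands in that annotation under its newer symbol *Ccn2*. The study compared hearts of mouse models of mitochondrial disease with wild-type hearts. The libraries came from whole hearts of C57BL/6 mice labelled as postnatal day 180, whereas the study's text gives an older age. There were 4 libraries labelled WT, 4 labelled YG8-800, 3 labelled KIKO-700 female and 3 labelled KIKO-700 male. Both lines carry germline alleles that are not restricted to a cell type, so fibroblasts and cardiomyocytes share them. The WT mice that belong to the KIKO-700 cohort were not analysed here.

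Fibroblasts of the heart arise largely from the epicardium, under the transcription factor TCF21, and carry the receptor PDGFRα on their surface. They secrete collagens, the small proteoglycans that bind collagen fibrils, and microfibrils that store latent TGF-β. Matricellular proteins such as periostin and CTGF do not build the scaffold but alter how cells respond to it, and they are best known in the heart for their induction in scars and in overloaded or stretched muscle.

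The libraries were made from the 3′ ends of transcripts, with totals from 5226233 to 11650840 counts, and values are CPM, counts set in proportion to the library's total, scaled by the TMM factors of edgeR over all 14 libraries. Genes of mitochondrial DNA took 28.9 to 44.6% of the counts. Directions here are those of the libraries as labelled. The labels give no sex for WT and YG8-800 and the study's text speaks of males, but *Xist* was above 10 CPM in WT 1, 2 and 4 and YG8-800 1 and 3, and below it in WT 3 and YG8-800 2 and 4. Values within each of these classes are therefore given beside the main results. They are unfitted differences of mean log2 CPM, YG8-800 less WT, so they differ in measure from the fitted changes. In the class below 10 CPM, WT 3 is the only WT library. Nothing in the labels says more than that the libraries are separate samples, so p-values measure the spread between these samples.

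**Figure D1:**
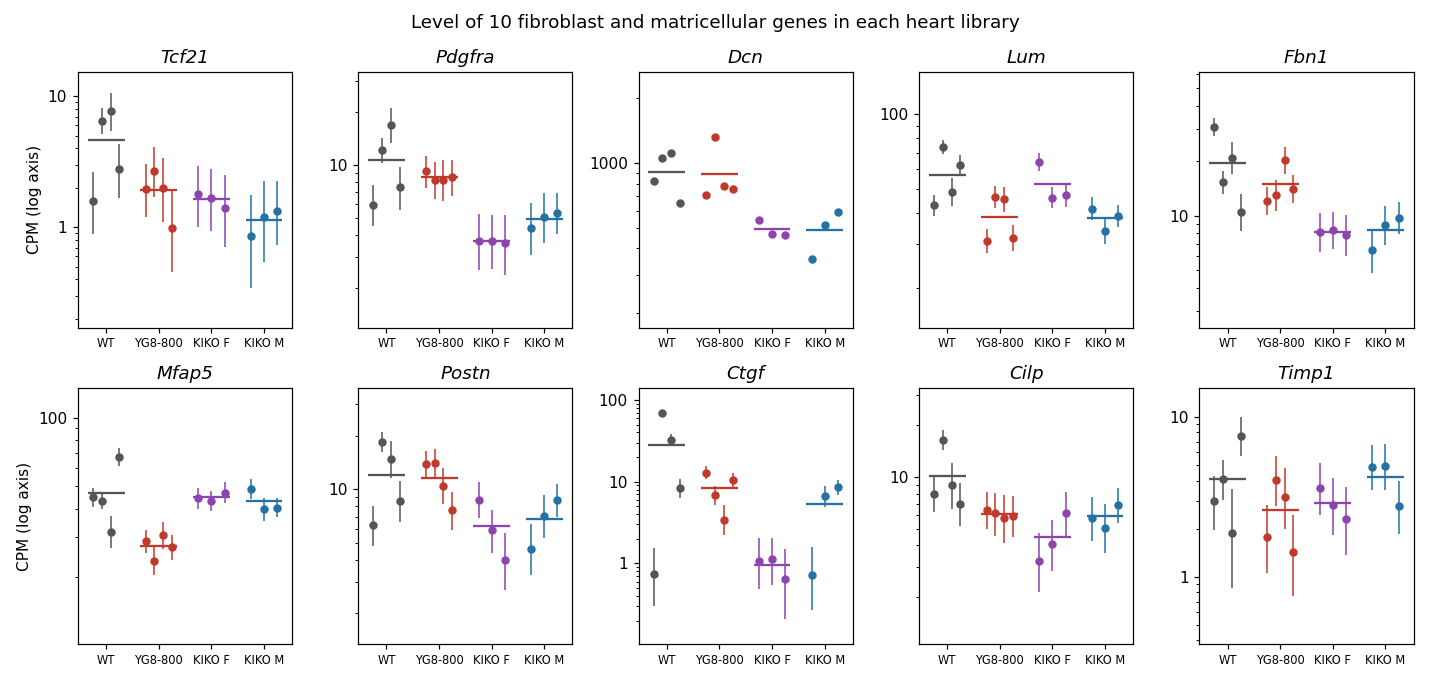
Level of each of the 10 genes in each library, in CPM on a log axis, in the WT, YG8-800, KIKO-700 female (KIKO F) and KIKO-700 male (KIKO M) groups. Points are libraries in the order of their replicate numbers, vertical bars are exact 95% Poisson intervals of the count, which cover counting error only, and horizontal lines are group means. The mean of *Dcn* is 908 CPM in WT, 890 CPM in YG8-800, 490 CPM in KIKO-700 females and 489 CPM in KIKO-700 males, and *Ctgf* runs from 0.742 to 69.8 CPM within the WT group.

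*Dcn* dominated the set, and none of the 10 genes passed the test of YG8-800 against WT libraries after adjustment over all genes. All 10 had a fitted log2 fold change below 0, with a median of -0.60, beside -0.01 over all genes tested, of which 50.5% were below 0. For 3 of the genes this sign turned on single libraries, since without WT 3 *Pdgfra* was at 0.03, *Dcn* at 0.13 and *Postn* at 0.08. The genes *Tcf21*, *Mfap5* and *Cilp* were lower at an unadjusted p under 0.05, and none was higher at it. By edgeR's quasi-likelihood test with Benjamini-Hochberg adjustment, 0 of 11875 genes passed an adjusted p of 0.05 (0%, smallest adjusted p = 0.285), and DESeq2 and limma-voom likewise called 0 members. At an unadjusted p under 0.05, 3.01% of all genes were lower and 3.04% were higher. The groups did not overlap for *Mfap5* and *Cilp*, both lower, against 2.26% of all genes that were lower and 1.43% that were higher without overlap. The count of 3 rested on single libraries, since it was 5 without WT 1, 1 without WT 2 and 1 without YG8-800 4. In bulk tissue, fewer fibroblasts and less of an RNA in each fibroblast cannot be told apart.

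**Figure D2:**
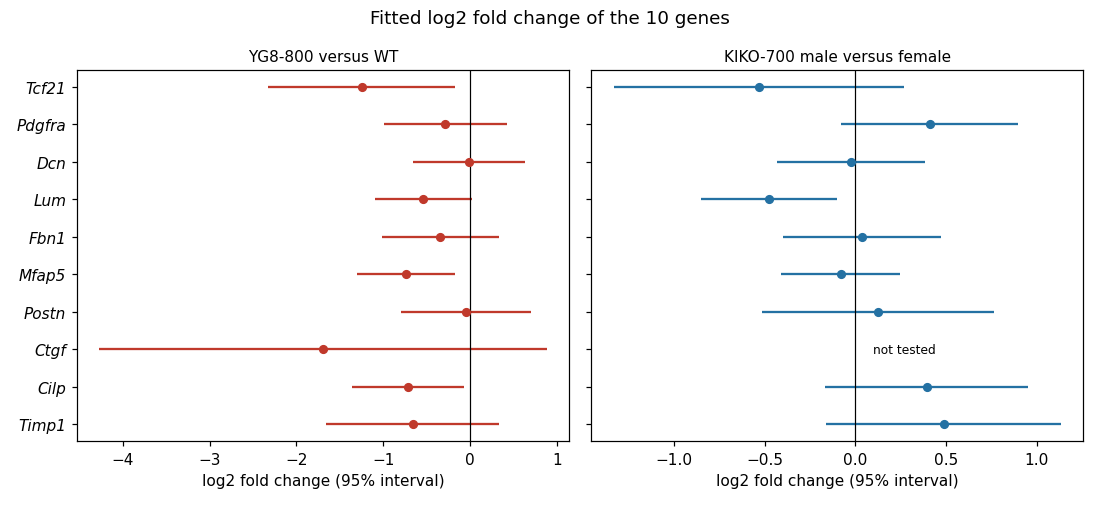
Fitted log2 fold change of each gene, with its 95% interval, for YG8-800 versus WT (left) and KIKO-700 male versus female (right). On the left the intervals of *Tcf21*, *Mfap5* and *Cilp* lie below 0, and that of *Ctgf* runs from -4.27 to 0.88. On the right only the interval of *Lum* excludes 0, and *Ctgf* was too low to be tested.

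The identity genes came first. *Tcf21* (chr10:22817281-22820174, minus strand, GRCm38), the transcription factor that marks resident cardiac fibroblasts, was at 1.59, 6.53, 7.69 and 2.77 CPM in WT 1 to 4. In the YG8-800 libraries it was at 1.98, 2.70, 2.01 and 0.990 CPM. WT 2 and WT 3 lay above every other library and WT 1 lay below 3 of the 4 YG8-800 libraries, so the groups overlapped. The log2 fold change was -1.25 ± 0.50 (SE, n = 4 and 4, edgeR adjusted p = 0.787). It rested on 9 to 82 reads a library. Without WT 2 and WT 3 together, an alternative chosen after seeing the data, it was -0.14. The unfitted class difference was -0.58 with *Xist* above 10 CPM and -2.06 below, where WT 3 was the only WT library.

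*Pdgfra* (chr5:75152292-75198215, plus strand), the receptor for PDGF-A and PDGF-C that is used to sort fibroblasts from hearts, was at 5.94, 12.1, 16.8 and 7.43 CPM in WT 1 to 4. In YG8-800 1 to 4 it was at 9.19, 8.21, 8.17 and 8.47 CPM. The YG8-800 libraries sat together inside the WT range, with SDs of 0.470 and 4.93 CPM around means of 8.51 and 10.6 CPM. Its fitted log2 change was -0.29 ± 0.33 (SE, edgeR adjusted p = 0.911). It was 0.03 without WT 3 and 0.39 without WT 2 and WT 3. The unfitted class difference was 0.09 with *Xist* above 10 CPM and -0.99 below. Of the 5 other genes of PDGF ligands and receptors that were tested, 3 had a log2 fold change above 0 and 2 below, and 0 passed an unadjusted p of 0.05.

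The collagen-binding proteoglycans stood at very different levels. *Dcn* (chr10:97479609-97518143, plus strand), decorin, which coats collagen fibrils and binds TGF-β, was at 819, 1055, 1111 and 647 CPM in WT 1 to 4. The YG8-800 libraries, in order, had 709, 1319, 776 and 754 CPM. YG8-800 2 was the highest of all 14 libraries, while the other 3 of its group lay between WT 4 and WT 1. The log2 fold change was -0.01 ± 0.30 (SE, edgeR adjusted p = 0.998), with a 95% interval from -0.65 to 0.64. Its sign is not settled, as it was 0.13 without WT 3, 0.06 without WT 2 and 0.09 without YG8-800 1, and likewise above 0 without YG8-800 3 or 4. In the *Xist* classes the unfitted difference was -0.15 above 10 CPM and -0.16 below. A *Dcn* read count of 4443 to 13238 in these 8 libraries leaves counting error far below the spread between hearts.

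*Lum* (chr10:97565128-97572703, plus strand) encodes lumican, a keratan sulfate proteoglycan that spaces collagen fibrils, and lies beside *Dcn* on the same strand. It was at 43.0, 74.0, 48.8 and 62.2 CPM in WT 1 to 4. In YG8-800 1 to 4 it was at 31.0, 46.5, 45.5 and 31.8 CPM. YG8-800 2 and 3 exceeded WT 1, and the other YG8-800 libraries lay below every WT library. On the log2 scale the difference was -0.54 ± 0.26 (SE, edgeR adjusted p = 0.831). In the *Xist* classes the unfitted difference was -0.63 above 10 CPM and -0.34 below. Of 8 other small leucine-rich proteoglycans tested, 5 were below 0 with a median of -0.31 and 0 passed an unadjusted p of 0.05. The one nearest to doing so was *Bgn*, biglycan, at 106 ± 29.3 CPM in WT and 78.7 ± 17.5 CPM in YG8-800 (SD, n = 4, edgeR adjusted p = 0.864).

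The microfibril genes were *Mfap5* and *Fbn1*. *Mfap5* (chr6:122505845-122529290, plus strand), a small glycoprotein of fibrillin microfibrils that is also used as a marker of adventitial fibroblasts, was at 44.8, 43.3, 31.6 and 67.5 CPM in WT 1 to 4. In the YG8-800 hearts it was at 28.7, 23.7, 30.7 and 27.1 CPM. All 4 YG8-800 libraries lay below all 4 WT libraries, with WT 3 only just above YG8-800 3. Its fitted log2 change was -0.74 ± 0.26 (SE, edgeR adjusted p = 0.786). It was below 0 with p under 0.05 in 17 of 18 alternatives, from -0.995 to -0.482, and the smallest adjusted p among them was 0.203. Its unfitted difference in the *Xist* classes was -0.77 above 10 CPM and -0.32 below.

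*Fbn1* (chr2:125300594-125507993, minus strand), fibrillin 1, the main microfibril protein, was at 30.8, 15.2, 20.8 and 10.5 CPM in WT 1 to 4. In YG8-800 1 to 4 it was at 12.05, 12.99, 20.21 and 14.08 CPM. WT held both the highest and the lowest of the 8 libraries, so the groups overlapped. The log2 fold change was -0.34 ± 0.31 (SE, edgeR adjusted p = 0.904), and it was -0.07 without WT 1. In the *Xist* classes the unfitted difference was -0.12 above 10 CPM and -0.61 below. Of 16 other microfibril and elastic fibre genes tested, 11 were below 0 with a median of -0.29, which was -0.06 without WT 1. *Ltbp1*, which tethers latent TGF-β to microfibrils, was the only one of them at an unadjusted p under 0.05 (-0.66 ± 0.30, SE, edgeR adjusted p = 0.816), and none was without WT 1.

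Of the matricellular genes, *Ctgf* varied more than any other member. *Ctgf* (chr10:24595442-24598683, plus strand), a CCN protein and a standard target of YAP and TGF-β signalling, had 7, 876, 156 and 57 reads in WT 1 to 4, or 0.742, 69.8, 32.4 and 8.31 CPM. The YG8-800 libraries, in order, had 12.9, 6.86, 3.44 and 10.5 CPM. WT held the highest 2 libraries and the lowest of the 8, and the coefficient of variation was 112% in WT and 49.3% in YG8-800. On the log2 scale the difference was -1.69 ± 1.10 (SE, edgeR adjusted p = 0.869). It was -0.70 without WT 2, 0.96 without WT 2 and WT 3 together, and -0.44 by limma-voom. The unfitted difference of mean log2 CPM, another measure than the fitted change, was -0.265 with *Xist* above 10 CPM and -1.91 below.

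*Ccn1*, a CCN protein encoded by a close relative of *Ctgf* and likewise a YAP target, was at 0.848, 8.69, 4.99 and 6.70 CPM in the WT libraries. Its YG8-800 levels were 10.8, 7.97, 3.01 and 5.94 CPM. WT 1 was the lowest library for *Ccn1* and among the lowest for *Ctgf*. In the YG8-800 group library 1 was highest and library 3 lowest for both genes. *Ankrd1*, a stretch-induced gene of cardiomyocytes on the same list, stood at 414 CPM in WT 1, below the 744 to 1080 CPM of the 7 others. The YAP and TEAD list holds target genes and also *Tead1*, *Yap1* and *Wwtr1*, factors of the pathway itself. Of its 13 tested genes, 9 were below 0 and 0 passed an unadjusted p of 0.05. Their median was -0.11 with all libraries and 0.195 without WT 2, so its sign turned on that library.

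**Figure D3:**
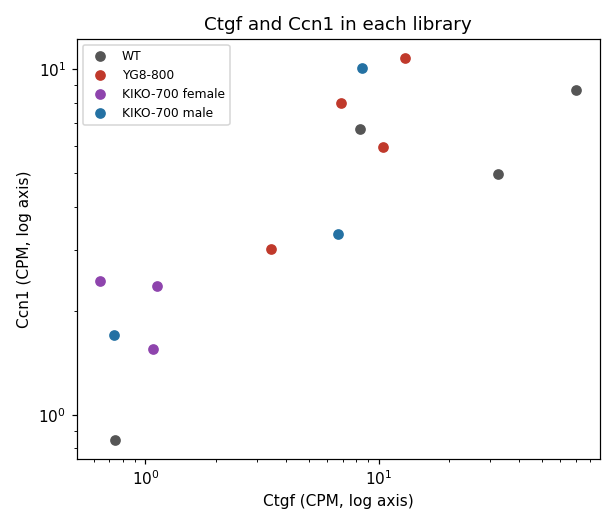
*Ctgf* against *Ccn1* in each of the 14 libraries, both in CPM on log axes, coloured by group. WT 1, KIKO-700 male 1 and the 3 KIKO-700 females lie at the lower left, below 1.2 CPM of *Ctgf* and 2.5 CPM of *Ccn1*, and WT 2 lies farthest right at 69.8 CPM of *Ctgf*.

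*Cilp* (chr9:65265180-65280605, plus strand), cartilage intermediate layer protein, which fibroblasts secrete and which binds TGF-β1, was at 7.95, 16.5, 8.93 and 6.99 CPM in WT 1 to 4. In YG8-800 1 to 4 it was at 6.42, 6.13, 5.73 and 5.94 CPM. The YG8-800 libraries were nearly equal and all lay below WT 4, the lowest WT library, while WT 2 stood apart above. Its fitted log2 change was -0.71 ± 0.30 (SE, edgeR adjusted p = 0.812). It lay between -0.96 and -0.26 over 18 alternatives, with p under 0.05 in 9 of them. The unfitted class difference was -0.66 with *Xist* above 10 CPM and -0.55 below.

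*Postn* (chr3:54361109-54391037, plus strand), periostin, the usual mark of activated fibroblasts in a scar, was at 6.25, 18.5, 14.8 and 8.60 CPM in WT 1 to 4. In the YG8-800 hearts it was at 13.8, 14.1, 10.5 and 7.59 CPM. Every YG8-800 library lay inside the WT range. The log2 fold change was -0.04 ± 0.35 (SE, edgeR adjusted p = 0.989), and its 95% interval ran from -0.79 to 0.70. It was above 0 by limma-voom (0.06), under the replicate block (0.03) and without WT 2 (0.24), WT 3 (0.08) or YG8-800 4 (0.11). In the *Xist* classes the unfitted difference was 0.26 above 10 CPM and -0.50 below. Of 12 tested genes of activated fibroblasts, 9 were below 0 with a median of -0.12, or -0.01 without WT 2, and 0 passed an unadjusted p of 0.05. *Acta2*, smooth muscle actin, was at 89.7 ± 48.9 CPM in WT and 63.4 ± 14.3 CPM in YG8-800 (SD, n = 4).

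*Timp1* (chrX:20870166-20874735, plus strand), a secreted inhibitor of metalloproteinases, was at 2.97, 4.06, 1.87 and 7.58 CPM in WT 1 to 4. In YG8-800 1 to 4 it was at 1.78, 4.05, 3.15 and 1.43 CPM. The ranges overlapped, and at 9 to 52 reads a library the counting intervals were wide. On the log2 scale the difference was -0.66 ± 0.46 (SE, edgeR adjusted p = 0.872). The unfitted class difference was -0.87 with *Xist* above 10 CPM and 0.34 below, where WT 3, with 9 reads, was the only WT library. *Timp4*, the inhibitor most typical of heart muscle, was at 32.9 ± 6.78 CPM in WT and 20.8 ± 8.93 CPM in YG8-800 (SD, n = 4, edgeR adjusted p = 0.819). It was the only one of 16 tested metalloproteinases and inhibitors at an unadjusted p under 0.05.

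Other markers of fibroblasts and of neighbouring cell types were read in the same libraries. Of 20 other fibroblast markers, 15 were below 0 with a median of -0.18, and *Htra3* and *Islr* were lower at an unadjusted p under 0.05. *Htra3*, a secreted serine protease, was at 52.0 ± 3.31 CPM in WT and 34.99 ± 5.31 CPM in YG8-800, with no overlap (SD, n = 4, edgeR adjusted p = 0.787). The summed level of the 20 markers was 924 to 1470 CPM in WT and 751 to 1090 CPM in YG8-800, with 0 of them at 0 in every library of a group. Much of this sum was *Gsn*, at 583 ± 203 CPM in WT and 377 ± 120 CPM in YG8-800 (SD, n = 4). At least 19 of the 20 were detected in each of the 14 libraries.

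Adipocyte markers had the lowest median of the lists with more than 1 tested gene. Of the 5 tested, all 5 were below 0 with a median of -2.37, and 4 were lower at an unadjusted p under 0.05. That count was 2 without WT 1, 2 by limma-voom and 2 without WT 2, where the median was -1.61. The 8 listed markers summed to 9.97 to 245 CPM in WT and 13.2 to 40.7 CPM in YG8-800, where *Lep* was at 0. Macrophage markers had a median of -0.31, 8 of 10 below 0, and summed to 433 to 615 CPM in WT and 330 to 486 CPM in YG8-800. *Csf1r* and *Cd163* were lower at an unadjusted p under 0.05. Atrial markers had a median of -0.70 which was -1.62 without YG8-800 3, and summed to 535 to 1360 CPM in WT and 165 to 1520 CPM in YG8-800. *Igkc*, the only lymphocyte marker tested, had a log2 fold change of -4.01, and the 10 lymphocyte markers summed to 446 CPM in WT 2. Epicardial and mesothelial markers summed to 30.3 to 50.6 CPM in WT and 19.9 to 43.9 CPM in YG8-800. The valve and tendon list had a median of -0.02, or 0.155 without WT 2, but held *Sox9*, lower at 7.20 ± 1.67 CPM in YG8-800 against 17.1 ± 7.99 CPM in WT (SD, n = 4, edgeR adjusted p = 0.786). The part of these cell types in the levels of the 10 genes was not tested.

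**Figure D4:**
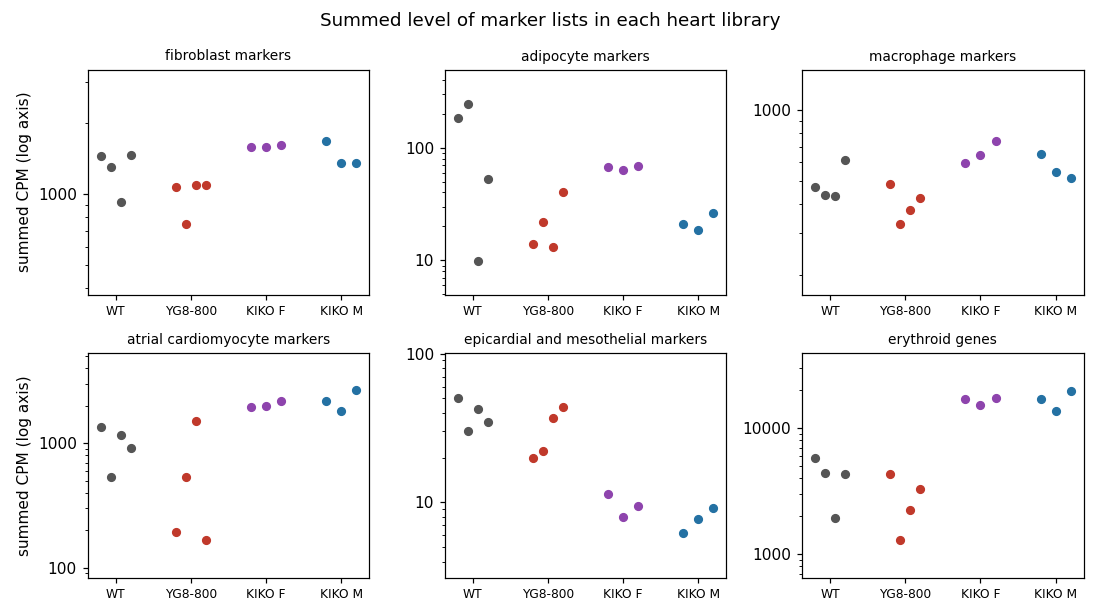
Summed CPM of 6 marker lists in each library, on log axes, with points as libraries in the order of their replicate numbers. The adipocyte sum runs from 9.97 to 245 CPM within WT, and the KIKO-700 libraries hold more erythroid and atrial and less epicardial transcript than the WT and YG8-800 libraries.

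Between KIKO-700 males and females no tested member passed the adjusted test either, and the directions were mixed. Of the 9 members tested, 4 were below 0 and 5 above, with a median of 0.04 beside 0.01 over all genes. *Lum* was lower in males at an unadjusted p under 0.05. By the same edgeR test, 8 of 11801 genes (0.0678%) passed an adjusted p of 0.05. Of these, *Xist*, *Uty*, *Ddx3y* and *Eif2s3y* are sex-linked and *Cfd* and *Car3* are on the adipocyte list. The others were *Alb* and *Fgb*, which are on none of the lists. At an unadjusted p under 0.05, 3.75% of genes were lower in males and 3.39% were higher. Males and females did not overlap for *Tcf21* and *Lum*, lower in males, and for *Pdgfra*, higher in males, against 6.26% of all genes lower and 6.21% higher without overlap.

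*Lum* was at 64.2, 46.2 and 47.2 CPM in females 1 to 3 and at 41.7, 34.0 and 39.0 CPM in males 1 to 3. Every male lay below every female. The difference of males from females was, on the log2 scale, -0.48 ± 0.17 (SE, n = 3 and 3, edgeR adjusted p = 0.625). It was below 0 in 14 of 14 alternatives, from -0.57 to -0.30, and without male 1 the adjusted p was 0.0309, in a fit in which 864 genes passed. Of 8 other small leucine-rich proteoglycans tested, 5 were below 0 and 3 above, with a median of -0.07. *Chad*, chondroadherin, was the only one of them at an unadjusted p under 0.05, lower in males (-1.23 ± 0.38, SE, edgeR adjusted p = 0.544). *Ecm2* (0.351 ± 0.195, SE) and *Podn* (0.349 ± 0.215, SE) were above 0. *Dcn* was at 541, 467 and 462 CPM in females and 357, 516 and 593 CPM in males, with the males on both sides of the females. Its log2 fold change was -0.02 ± 0.19 (SE, edgeR adjusted p = 0.991).

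*Tcf21* was at 1.79, 1.69 and 1.41 CPM in females and 0.853, 1.20 and 1.34 CPM in males, that is 7 to 15 reads a library. The male range ended just below the female range. The log2 fold change was -0.53 ± 0.37 (SE, edgeR adjusted p = 0.833). *Pdgfra* went the other way, at 3.71, 3.71 and 3.59 CPM in females and 4.39, 5.06 and 5.35 CPM in males. Its log2 fold change was 0.41 ± 0.23 (SE, edgeR adjusted p = 0.768). Of the 5 other genes of PDGF ligands and receptors that were tested, 3 were above 0 and 2 below, with a median of 0.195. *Pdgfa*, a ligand of this receptor, was lower in males, at 12.8 ± 1.16 CPM against 16.7 ± 1.79 CPM (SD, n = 3, edgeR adjusted p = 0.66). It was the only one of them at an unadjusted p under 0.05, and *Pdgfd* (0.32) and *Pdgfb* (0.505) were above 0.

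*Ctgf* had 9, 10 and 5 reads in females and 6, 50 and 89 reads in males, or 1.08, 1.13 and 0.641 CPM against 0.731, 6.66 and 8.51 CPM. Males 2 and 3 lay above all females and male 1 lay among them. At these counts it did not pass the filter on low counts and was not tested. Fitted without the filter, its log2 fold change was 2.47 ± 0.50 (SE, edgeR adjusted p = 0.0127, with 105 genes past the threshold). In 1 fit over all 14 libraries it was 2.46 ± 1.44 (SE, edgeR adjusted p = 1). Without male 1 it passed the filter, at 2.97 ± 0.30 (SE, edgeR adjusted p = 1.72e-06, with 864 genes past the threshold). Without any 1 of the females it also passed the filter, at 2.25 to 2.59 (edgeR adjusted p from 0.942 to 0.999). The call thus turned on the filter and on male 1. Nothing is read from it, since only males 2 and 3 had more than 10 reads. *Ccn1* was at 1.56, 2.36 and 2.43 CPM in females and 1.71, 3.33 and 10.04 CPM in males, again with male 1 among the females.

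The other members overlapped between the sexes. *Mfap5* was at 43.2 to 47.0 CPM in females and 39.8 to 48.8 CPM in males (log2 fold change -0.08 ± 0.15, SE), and *Fbn1* at 7.82 to 8.33 CPM and 6.46 to 9.75 CPM (0.04 ± 0.20). *Postn* was at 3.97 to 8.73 CPM in females and 4.63 to 8.70 CPM in males (0.12 ± 0.30). *Cilp* was at 3.23 to 6.15 CPM and 5.06 to 6.88 CPM (0.39 ± 0.26). *Timp1* was at 2.31 to 3.59 CPM and 2.77 to 4.93 CPM (0.49 ± 0.30). The 95% interval of the log2 fold change was narrowest for *Mfap5*, from -0.41 to 0.25.

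Matrix genes outside the 10 differed in direction between the sexes, and none of those on the matrix lists passed the adjusted test. *Col8a1*, a short-chain collagen of activated fibroblasts, was at 14.7 ± 1.82 CPM in males and 7.38 ± 0.417 CPM in females (SD, n = 3, edgeR adjusted p = 0.126). *Efemp1*, *Eln* and *Fbln2* of the elastic fibre list and *Sparc* of the matricellular list were higher in males at an unadjusted p under 0.05. Of the 18 elastic fibre genes tested, 3 were higher and 1 was lower at that p, and 9 were above 0 and 9 below, with a median of 0.04. *Smoc2*, a matricellular protein of resident fibroblasts, was lower in males, at 24.7 ± 4.07 CPM against 36.4 ± 4.12 CPM (SD, n = 3, edgeR adjusted p = 0.525). Of 19 other fibroblast markers tested, 10 were below 0 with a median of -0.01. All 6 tested adipocyte markers were lower at an unadjusted p under 0.05, and the list summed to 62.7 to 69.1 CPM in females and 18.8 to 26.1 CPM in males. Macrophage markers had a median of -0.26 with 3 of 10 lower and 1 higher at an unadjusted p under 0.05, and without female 3 the median was -0.07 with 1 lower and 0 higher. Their part in the levels of *Lum* and the other members was not tested.

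Set side by side, the KIKO-700 libraries held less of most of these transcripts than the WT and YG8-800 libraries. The ratio of the mean of 6 KIKO-700 libraries to the mean of the other 8 was 0.451 for *Pdgfra*, 0.544 for *Dcn* and 0.482 for *Fbn1*, and the ranges of these 3 genes did not overlap. It was 0.421 for *Tcf21*, 0.552 for *Postn*, 0.642 for *Cilp* and 0.172 for *Ctgf*, with overlapping ranges. It was 0.948 for *Lum*, 1.18 for *Mfap5* and 1.06 for *Timp1*. *Dcn* was at 357 to 593 CPM in KIKO-700 and 647 to 1319 CPM in the others. The 12 other small leucine-rich proteoglycans went the other way, summing to 275 to 322 CPM in KIKO-700 and 142 to 249 CPM in the others. *Bgn* alone held 173 to 213 and 62.7 to 139 CPM of these sums. The 20 other microfibril and elastic fibre genes summed to 237 to 253 and 150 to 265 CPM, with overlap. The sum of the 20 other fibroblast markers was not lower, at 1350 to 1690 CPM in KIKO-700 and 751 to 1470 CPM in the others. Of it, *Gsn* alone held 411 to 725 CPM in KIKO-700 and 197 to 710 CPM in the others. The rest of the sum, without *Gsn*, was higher in every KIKO-700 library than in any other. It was smallest among KIKO-700 in female 1 (sum 1585, *Gsn* 725 CPM) and largest among the others in WT 4 (sum 1465, *Gsn* 696 CPM). A sum need not follow each of its genes. Epicardial and mesothelial markers summed to 6.22 to 11.4 CPM in KIKO-700 and 19.9 to 50.6 CPM in the others, erythroid genes to 13700 to 19800 and 1300 to 5760 CPM, and atrial markers to 1820 to 2670 and 165 to 1520 CPM. The share of all genes without overlap between these cohorts was not counted, so the 3 genes without overlap are not read as particular. Cohort and genotype cannot be told apart, and no test was made.

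In order of group means, WT was highest for all members but *Timp1*, which was at 4.19 CPM in KIKO-700 males and 4.12 CPM in WT. *Pdgfra* stood in WT at 10.6, YG8-800 at 8.51, KIKO-700 males at 4.93 and females at 3.67 CPM, and only the step from WT to YG8-800 had overlapping ranges. For *Mfap5* the order was WT at 46.8, KIKO-700 females at 44.9, males at 43.0 and YG8-800 at 27.5 CPM, and only the last step was free of overlap. For *Lum*, *Postn*, *Ctgf* and *Timp1* every neighbouring pair of groups overlapped.

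The 9 members tested in both comparisons did not vary as 1 block from heart to heart. Each library's log2 CPM was taken as its deviation from its group mean, and the 36 pairs had a median Pearson r of 0.14 over 14 libraries, 20 of them above 0. *Tcf21* went with *Postn* (r = 0.871) and *Pdgfra* (r = 0.851), and these last also went together (r = 0.695). *Lum* went with *Timp1* (r = 0.664). *Mfap5* ran opposite to *Dcn* (r = -0.772) and *Pdgfra* (r = -0.661), and *Fbn1* was close to independent of *Tcf21* (r = -0.138). WT 1 was low for *Tcf21*, *Pdgfra* and *Postn* and highest for *Fbn1*, whereas WT 4 was highest for *Mfap5* and *Timp1*. These points share their libraries, and the WT group holds the widest deviations, so the values are descriptions.

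**Figure D5:**
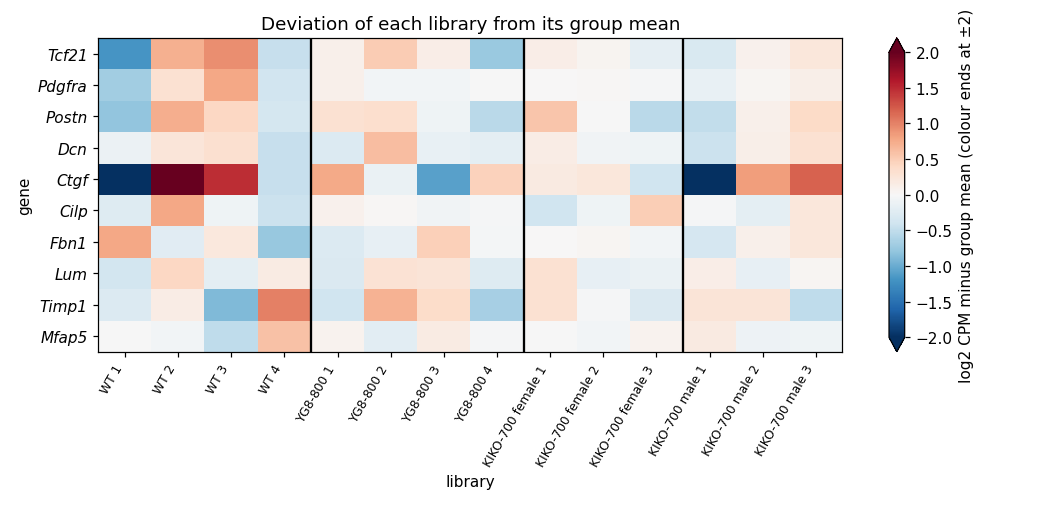
Deviation of log2 CPM from the group mean for the members in each library, from blue (below) to red (above), with black lines between groups. *Tcf21*, *Pdgfra* and *Postn* are low in WT 1 and high in WT 2 and WT 3, *Mfap5* and *Timp1* are high in WT 4, and the *Ctgf* deviations run from -3.59 in WT 1 to 2.58 in WT 2.

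Of 11199 genes searched, those whose deviations were most like the mean of the 9 members were *Cebpg* (r = 0.942), *Wdr20* (0.926), *Rcn2* (0.889), *Med11* (0.882), *Snx13* (0.875), *Ldlrad3* (0.874), *Srsf5* (0.870) and *Strip2* (0.869). None of them is on a fibroblast list. The gene nearest to *Tcf21* alone was the endothelial cadherin *Cdh5* (r = 0.957), and the genes nearest to *Pdgfra*, *Dcn*, *Fbn1* and *Postn* were *Rnmt*, *Twf1*, *Gcc2* and *Lims1* (r from 0.940 to 0.979). The nearest to *Lum*, *Mfap5*, *Cilp* and *Timp1* were *Insig1*, *BC005624*, *Mapk9* and *Cstf1* (r from 0.871 to 0.951). A search over this many genes and 14 libraries returns high values, and no p is given.

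The sequences upstream of *Tcf21*, *Pdgfra* and *Postn* are shown because these genes varied together most closely. They are RefSeq windows of GRCm38.p6 on the gene's strand, 5′ to 3′, ending before the first annotated base of the transcript in both RefSeq and GENCODE, and capitals mark the only motif found. They lie at chr10:22820175-22820393 (minus strand), chr5:75152001-75152250 (plus strand) and chr3:54360857-54361106 (plus strand).
Tcf21: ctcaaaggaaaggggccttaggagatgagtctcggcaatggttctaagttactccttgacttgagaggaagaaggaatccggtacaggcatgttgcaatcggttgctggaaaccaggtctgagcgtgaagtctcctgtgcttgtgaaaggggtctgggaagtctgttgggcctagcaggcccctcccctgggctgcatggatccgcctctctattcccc
Pdgfra: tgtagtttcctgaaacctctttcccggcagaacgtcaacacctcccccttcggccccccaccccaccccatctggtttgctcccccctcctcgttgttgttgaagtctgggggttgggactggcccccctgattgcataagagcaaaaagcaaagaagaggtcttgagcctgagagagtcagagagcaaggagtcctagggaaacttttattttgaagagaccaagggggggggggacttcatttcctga
Postn: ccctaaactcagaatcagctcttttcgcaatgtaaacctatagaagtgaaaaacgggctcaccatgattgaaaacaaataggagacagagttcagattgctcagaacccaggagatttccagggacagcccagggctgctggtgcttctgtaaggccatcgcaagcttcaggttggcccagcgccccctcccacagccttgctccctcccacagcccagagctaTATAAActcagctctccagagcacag
Windows were held for 6 of the 10 genes and their 250 bases before the RefSeq start were searched on both strands for a TATA box (TATAAA), a TEAD motif (GGAATG), an AP-1 motif (TGANTCA), a SMAD motif (CAGACA) and the E-box form CAGCTG. The only match among the 3 genes shown was the TATA box of *Postn*, at -26 from the start, a form found in 12.4% of 32851 promoters of the same length. *Cilp* held a CAGCTG at -39 (13% of promoters) and *Timp1* a GGAATG at -247 (12.6%). AP-1 and SMAD motifs, in 6.7% and 17.1% of promoters, were in none of the 6. So *Tcf21*, *Pdgfra* and *Postn* had no motif of those searched in common.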

How the data were processed

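RNA from 14 flash-frozen mouse hearts was made into Lexogen QuantSeq 3′ FWD libraries and sequenced as single 86-base reads. The authors deposited whole-number counts of reads per Ensembl gene, 1 table per library, without normalization. The submitters' processing notes name STAR 2.5.0a, HTSeq 0.6.1 and GRCm38.p6, while the methods name ShortRead, Rsubread and featureCounts, and this was not reconciled. Of 54532 identifiers, 54409 (99.8%) matched GENCODE M21. Since 1 read comes from each transcript end, CPM was not divided by length. Genes were filtered by filterByExpr (minimum count 10), given TMM factors and fitted in edgeR 4.0.16 (R 4.3.3) by its quasi-likelihood method with robust options, each experiment apart. P-values were adjusted by Benjamini-Hochberg over all genes tested and called under 0.05. A prior count of 2 went into log2 CPM. The script was tested on simulated counts.

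The members and gene lists were chosen with earlier results of these data known. All 10 members are named, with up to 3 genes of each other list by smallest p in each comparison, the 8 genes nearest the members' mean pattern and the nearest gene to each member. Same-numbered libraries were checked for shared deviations (correlations from -0.215 to 0.244), and the numbers do not pair them. Alternatives were RLE factors, library size alone, no filter, DESeq2 1.42.0, limma-voom (limma 3.58.1), 1 fit over all libraries, mitochondrial DNA and the 4 largest Gm genes left out, the replicate block, *Xist* as covariate or class, and each library left out. No 2 libraries were identical. An item withheld for evaluation is not reported here.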

Additional observations from a re-analysis of the deposited data

Results flagged for a closer look

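*Dcn* in YG8-800 2, at 1319 CPM, stood apart from the other 3 libraries of its group, which lay between 709 and 776 CPM. The gap was 0.89 of the group's whole range, above Dixon's 95% critical value for 4 samples. It was the only such value among 20 groups of 4 libraries, and chance flags about 1 group in 20. *Tcf21* (2.70 CPM) and *Postn* (14.1 CPM) were also highest of their group in this library, and *Mfap5* was lowest (23.7 CPM).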

How the results depend on the processing

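The 0 members past adjusted p in YG8-800 stayed 0 in every alternative run, and the 3 past unadjusted p became 1 by limma-voom, 1 without WT 2 and WT 3 together (added after seeing the data) and 1 to 5 with each library left out, and stood at 2 under the replicate block. In KIKO-700 the 0 past adjusted p became 1 (*Ctgf*) with no filter and 0 to 2 with each library left out, and the 1 past unadjusted p became 2 with no filter, 0 in 1 fit over all 14 libraries and 0 to 3 with each library left out. In YG8-800, *Postn* was 0.057 by limma-voom and 0.034 with the replicate block. Without WT 2 and WT 3, *Pdgfra* was 0.39, *Dcn* 0.33, *Postn* 0.68 and *Ctgf* 0.96. With *Xist* above 10 CPM, *Pdgfra* was 0.09 and *Postn* 0.26, and with *Xist* below 10 CPM *Timp1* was 0.34. With each library left out, *Dcn* ran from -0.254 to 0.126, *Postn* from -0.279 to 0.236 and *Pdgfra* from -0.506 to 0.033 in YG8-800, and in KIKO-700 *Dcn* from -0.182 to 0.165, *Postn* from -0.109 to 0.456 and *Fbn1* from -0.093 to 0.197. The median of the atrial list was -1.62 without YG8-800 3. *Ctgf* is at more than 10 reads in males 2 and 3 alone, so its entry into those fits gives no support. The causes were not tested. The replicate block changed no adjusted call. Library size alone moved the median of all genes in YG8-800 to -0.21 and 5 of 40 group means by over 1 SD. Leaving out mitochondrial and Gm genes multiplied the means by 2.14 to 2.25. The *Xist* classes gave unfitted differences of mean log2 CPM, without a test. *Tcf21*, *Timp1* and *Ctgf* had under 20 reads in several libraries, which limits what could be detected in them.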
